A study of Mus musculus with 6 samples.

Results

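The TRAF adaptors and the death domain adaptors carry signals from receptors of the tumor necrosis factor (TNF) family into the cell, and 10 of their genes were examined here in mouse acute myeloid leukemia (AML). The genes were *Traf1* to *Traf7*, *Tradd*, *Fadd* and *Ripk1*, taken by their symbols from the deposited table, where they account for 10 of 54532 genes. All 10 passed the filter on low counts, which left 14169 genes to be tested.

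The libraries came from GFP+ leukemia cells sorted from bone marrow. The leukemia was driven by a retrovirus with RUNX1-ETO9a (RE9a), a shortened form of the t(8;21) fusion protein, and GFP, put into fetal liver cells of male donors and passed on by serial transplantation into male recipients. *WT Phf6,RE9a* cells carried the floxed allele without Cre (*Phf6* fl/y), and *VC Phf6,RE9a* cells carried the same allele with *Vav1-Cre* (*Vav1-Cre;Phf6* fl/y), which deletes *Phf6* in blood cells, so both groups shared the floxed allele and the fusion gene. The groups are called WT and VC from here on. There were 3 libraries per group, WT 1, 2 and 3 and VC 11, 12 and 13, and the comparison asks how the loss of *Phf6*, an X-linked gene of a chromatin protein, goes together with expression of the adaptors. Ages at sampling were not given in the labels, nor whether the libraries of a group came from separate leukemias, so the p-values measure only the spread between these libraries.

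When a TNF family receptor binds its ligand, its tail gathers adaptors. TRAF proteins bind receptor tails or other adaptors through their TRAF domain, and most carry a RING finger, the fold of ubiquitin ligases, while TRAF7 has WD40 repeats in place of the TRAF domain. TRADD, FADD and RIPK1 bind by their death domains. From these complexes the signal runs to the NF-κB and JNK kinases or, through FADD and caspase-8, to cell death.

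Levels are given in CPM (reads of a gene relative to the size of its library, scaled by TMM). Log2 fold changes are VC over WT, with their standard error (SE), from the quasi-likelihood fit of edgeR, whose p-values were adjusted by Benjamini and Hochberg's method over every gene tested. A gene was called at an adjusted p under 0.05. Total counts ran from 15675358 to 16817994 per library, so a gene with 0 counts may still have had up to 3, or 0.174 to 0.203 CPM. *Phf6* itself (chromosome X, 52912266 to 52956943) had 1044, 827 and 1142 counts in WT and 388, 314 and 331 in VC cells. Its log2 fold change was -1.66 (SE 0.13, edgeR adjusted p = 9.32e-05), and every VC library lay below every WT library.

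Of the 10 adaptor genes, 1 rose in VC cells, 4 fell and 5 were not called. *Traf4* rose 2.08-fold and *Traf1* fell 2.62-fold, and the 3 other calls were decreases of 1.22-fold (*Traf6*), 1.19-fold (*Traf7*) and 1.28-fold (*Ripk1*). The 5 calls make 50% of the adaptor genes, against 44.2% of all genes tested, of which 21.5% were called higher and 22.7% lower. The groups did not overlap for 7 of the 10 genes (3 with VC above, 4 below), against 57.3% of all genes tested. The share of called adaptor genes thus lay near that of all genes. The median log2 fold change of the 10 genes was -0.20, and that of all genes was 0.01.

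**Figure D1:**
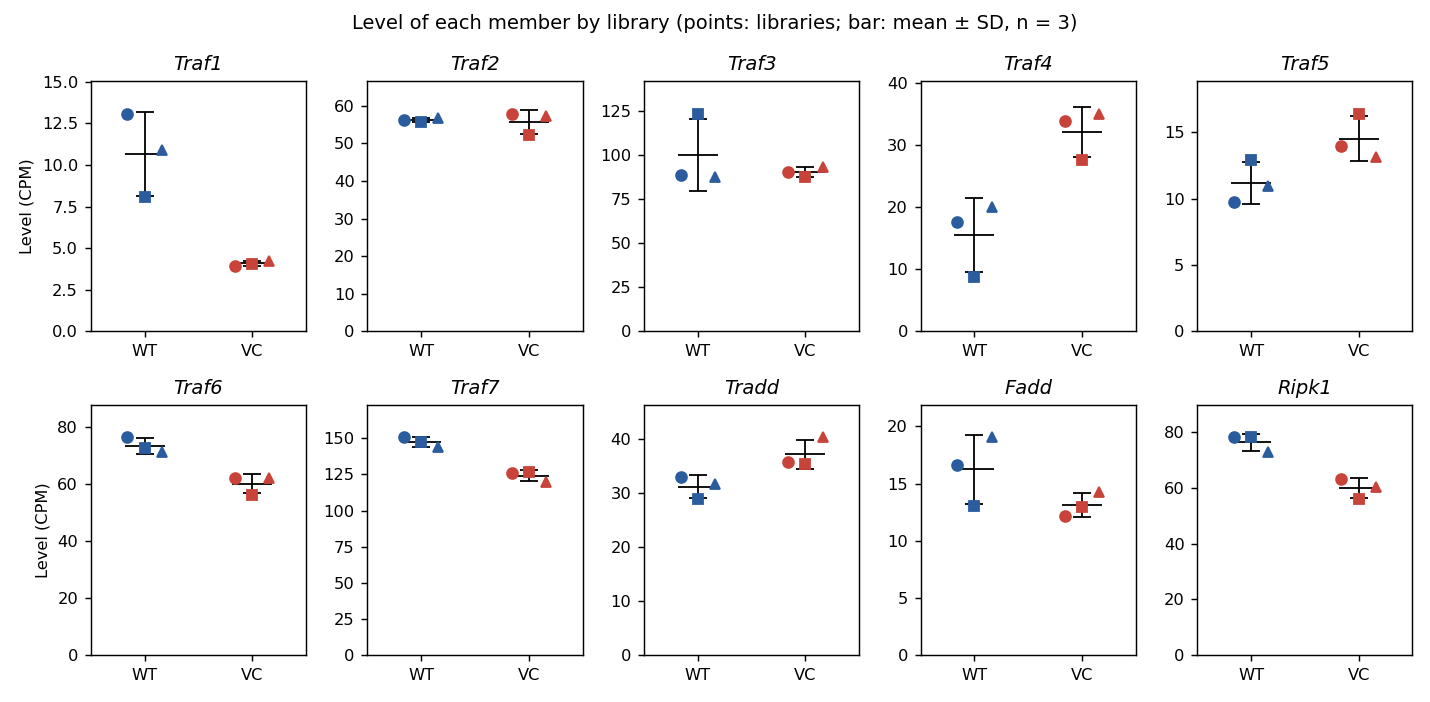
Level of each adaptor gene in CPM (vertical axes, each from 0) in the 3 WT (blue) and 3 VC libraries (red), with circle, square and triangle for replicates 1, 2 and 3 or 11, 12 and 13, and a bar for the mean ± SD. The groups stand apart for Traf1, Traf4, Traf5, Traf6, Traf7, Tradd and Ripk1 and overlap for Traf2, Traf3 and Fadd.

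Markers of several other and more mature cell types moved with the groups, and in these bulk libraries fewer cells of a type and less RNA per cell cannot be told apart. Of 11 leukemia and myeloid progenitor markers, 3 were higher in VC cells, 5 lower and 3 not called (summed 4820 to 6170 against 2460 to 2520 CPM). *Kit* was lower, at 31001 to 41368 counts in WT and 3679 to 6040 in VC libraries, while *Cebpa*, *Mpo* and *Itgam* were higher (log2 fold changes 1.94, 1.88 and 2.31). All 11 granulocyte markers were higher in VC cells (summed 167 to 512 against 1020 to 3820 CPM), as were all 10 erythroid markers (1650 to 2480 against 5580 to 6530 CPM), and 8 of 10 mast cell and basophil markers were lower (19200 to 31700 against 6180 to 6780 CPM). Of 10 tested macrophage and dendritic cell markers, 1 was higher and 9 were not called (summed 36 to 51.9 against 47.7 to 83.3 CPM). The few tested natural killer, megakaryocyte and stromal markers were called in both directions. Summed B cell markers were 3.63 to 5.49 against 15 to 34.6 CPM. Summed T cell markers were 1.30 to 2.30 against 7.59 to 11.5 CPM, with *Lck*, the 1 gene of this list with enough counts to be tested, at 5, 8 and 16 against 95, 117 and 90 counts and *Cd3e* at 6 counts or fewer in every library. The part of these cells in the values of *Traf1*, *Traf4*, *Traf5* and the other adaptor genes was not tested.

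The promoters of *Traf1*, *Traf4* and *Traf3* are shown because *Traf1* and *Traf4* had the largest changes and *Traf3* holds the 1 match to the NF-κB site. Each window runs from 250 bases before to 50 bases after the start of the gene in RefSeq (GRCm38.p6), on the strand of the gene, and capitals mark a match to the κB consensus or to the RUNX site TGTGGT on either strand. The *Traf1* window is chr2:34961723-34962022 on the minus strand, the *Traf4* window is chr11:78165501-78165800 on the minus strand, and the *Traf3* window is chr12:111166120-111166419 on the plus strand.
Traf1: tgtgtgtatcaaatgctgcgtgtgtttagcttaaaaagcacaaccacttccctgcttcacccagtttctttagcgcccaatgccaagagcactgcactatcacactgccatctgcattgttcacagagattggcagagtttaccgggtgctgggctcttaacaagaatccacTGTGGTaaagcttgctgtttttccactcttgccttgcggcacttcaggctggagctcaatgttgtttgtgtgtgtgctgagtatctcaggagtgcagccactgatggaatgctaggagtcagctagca
Traf4: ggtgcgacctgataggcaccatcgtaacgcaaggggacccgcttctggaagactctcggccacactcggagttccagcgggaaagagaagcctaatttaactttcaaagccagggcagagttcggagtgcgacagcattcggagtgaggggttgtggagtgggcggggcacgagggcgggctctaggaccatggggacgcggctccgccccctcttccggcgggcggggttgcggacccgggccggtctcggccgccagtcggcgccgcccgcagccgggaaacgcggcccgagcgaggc
Traf3: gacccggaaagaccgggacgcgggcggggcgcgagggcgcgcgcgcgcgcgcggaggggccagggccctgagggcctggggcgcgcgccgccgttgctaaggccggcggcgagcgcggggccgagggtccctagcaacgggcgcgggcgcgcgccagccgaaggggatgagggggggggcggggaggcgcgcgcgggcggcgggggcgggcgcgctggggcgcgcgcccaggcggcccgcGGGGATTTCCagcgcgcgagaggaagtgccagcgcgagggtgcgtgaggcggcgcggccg

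Windows were found for 9 of the 10 genes, 2 of them for *Ripk1* and none for *Tradd*. The κB consensus matched in the *Traf3* window, 10 to 1 bases before the start (GGGGATTTCC), and in 4.51% of all 32851 windows. The RUNX letters matched in 3 windows, those of *Traf1* (78 to 73 bases before the start), *Traf6* (73 to 68 bases before) and *Traf5* (32 to 27 bases before, like *Traf6* on the other strand), against 16.8% of all windows. The letters TATAAA were in 0 of the 10 windows and in 13.6% of all. Base composition set the 3 printed windows apart, with a GC content of 48.7% and 4 CpG in *Traf1*, 68% and 33 CpG in *Traf4*, and 84% and 59 CpG in *Traf3*, where the median of all windows was 52.7% and 7 CpG. A match describes the letters in the window, and binding was not measured in these libraries.

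*Traf1* encodes the TRAF that lacks the RING finger, acts together with TRAF2 and is itself a known NF-κB target (ENSMUSG00000026875, chromosome 2, 34941750 to 34961772, minus strand). Its counts were 202, 119 and 180 in WT and 67, 70 and 71 in VC libraries. The lowest WT library thus stood above the highest VC library, and the 3 VC libraries were close together. The level fell from 10.7 ± 2.52 to 4.08 ± 0.131 CPM (SD, n = 3), which was 2.62-fold lower, with a log2 fold change of -1.39 (SE 0.23, edgeR adjusted p = 0.00249). It was also the adaptor gene with the lowest level per length in both groups. The study picked out NF-κB genes from these same libraries, so the direction of an adaptor gene of that pathway here is not independent evidence.

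*Traf4* encodes a TRAF best known from epithelia and development (ENSMUSG00000017386, chromosome 11, 78158499 to 78165589, minus strand). It had 271, 129 and 332 counts in WT and 574, 474 and 591 in VC libraries. Library 2 of WT was the low one, and all VC libraries lay above all WT libraries. The level rose 2.08-fold, from 15.5 ± 5.95 to 32.2 ± 4.02 CPM (SD, n = 3), with a log2 fold change of 1.05 (SE 0.28, edgeR adjusted p = 0.0183). The call was lost without library 11 (adjusted p = 0.0558) or library 13 (adjusted p = 0.0544) of VC. *Traf1* and *Traf4* were the 2 called adaptor genes with a change of at least 2-fold, against 21.4% of all genes tested.

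*Traf6*, the TRAF of the interleukin-1 and Toll-like receptors (chromosome 2, 101678429 to 101701669), had 1179, 1072 and 1178 counts in WT and 1054, 967 and 1049 in VC libraries. In CPM the groups did not overlap, at 73.4 ± 2.71 and 60.2 ± 3.42 (SD, n = 3), and the log2 fold change was -0.29 (SE 0.083, edgeR adjusted p = 0.0255). *Traf7*, which encodes a RING finger protein that binds the kinase MEKK3, was the most abundant TRAF gene per length (chromosome 17, 24508562 to 24527938). It had 2324, 2179 and 2378 against 2133, 2184 and 2025 counts, and fell from 147.3 ± 3.48 to 124.3 ± 3.68 CPM (SD, n = 3; log2 fold change -0.24, SE 0.073, edgeR adjusted p = 0.0282). The fitted variation between libraries was lower in only 5.50% of all genes than in *Traf6*, and in 0.494% than in *Traf7*. Each passed the threshold in 2 of the 6 fits that left out a library.

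The 3 other TRAF genes were not called. *Traf2*, whose protein brings the cIAP ubiquitin ligases to TNF receptors, had 866, 822 and 938 counts in WT and 983, 897 and 968 in VC libraries. At 56.2 ± 0.509 and 55.8 ± 3.19 CPM the groups overlapped, and the 95% interval of the log2 fold change ran from -0.20 to 0.18 (edgeR adjusted p = 0.948). *Traf3*, whose protein restrains the alternative NF-κB kinase NIK, had 1372, 1826 and 1454 against 1538, 1503 and 1576 counts. The groups overlapped, at 100.2 ± 20.4 and 90.5 ± 3.03 CPM. WT library 2, at 123.7 CPM, stood above the 5 other libraries, and the interval was -0.47 to 0.18 (edgeR adjusted p = 0.430). *Traf5*, which is close to *Traf2* in function and best known from lymphocytes, had 150, 190 and 181 against 237, 282 and 222 counts. Its VC libraries all lay higher, at 14.5 ± 1.69 against 11.2 ± 1.59 CPM, with an interval of -0.03 to 0.78 (edgeR adjusted p = 0.116).

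**Figure D2:**
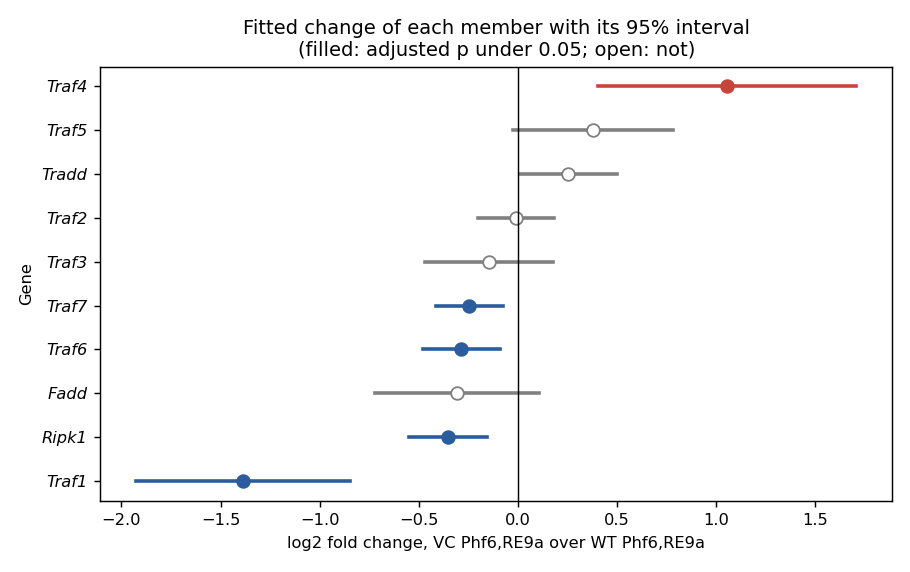
Log2 fold change of VC over WT (horizontal axis) for each adaptor gene (vertical axis), with its 95% interval as a line. Filled points passed an adjusted p of 0.05: Traf4 on the right at 1.05, and Traf1 (-1.39), Ripk1 (-0.35), Traf6 (-0.29) and Traf7 (-0.24) on the left.

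Among the death domain adaptors, *Ripk1* fell and *Tradd* and *Fadd* were not called. *Ripk1* encodes the kinase that carries ubiquitin chains for NF-κB signaling or, when active, starts cell death (ENSMUSG00000021408, chromosome 13, 34002363 to 34037147). It had 1207, 1155 and 1206 counts in WT and 1073, 964 and 1016 in VC libraries. The groups did not overlap, at 76.5 ± 3.09 and 59.9 ± 3.60 CPM (SD, n = 3), and the log2 fold change was -0.35 (SE 0.084, edgeR adjusted p = 0.0118). The call was lost without VC library 12 (adjusted p = 0.0556).

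*Tradd*, the first adaptor of TNF receptor 1, had 509, 425 and 524 counts in WT and 606, 608 and 679 in VC libraries. All VC libraries lay higher, at 37.1 ± 2.74 against 31.2 ± 2.15 CPM, but the gene was not called (log2 fold change 0.25, interval 0.01 to 0.50, edgeR adjusted p = 0.0872). *Fadd*, whose protein recruits caspase-8, had 257, 192 and 315 against 206, 223 and 240 counts. Here the groups overlapped, at 16.2 ± 3.04 and 13.1 ± 1.06 CPM, with an interval of -0.72 to 0.11 (edgeR adjusted p = 0.199).

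Some reads of these genes could belong to neighbours with which they share exon bases. For neighbours on the other strand this depends on the strandedness of the counting, which was not given in the sources used here. *Ripk1* shares 241 of 8344 exon bases with *Serpinb6a* on the other strand, a gene with 111 to 174 counts in WT and 75 to 86 in VC libraries. It shares 511 with *Gm17084* on the same strand, which had 0 counts in every library. *Traf7* shares 267 exon bases with *Rab26* on the same strand and 110 with *Caskin1* on the other strand, genes of at most 26 counts. *Fadd* shares 239 exon bases with *Faddos* and *Traf5* shares 205 with *Gm26879*, both at 6 counts or fewer. *Traf1*, *Traf4*, *Traf6* and *Tradd* overlapped no gene.

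Levels of different genes were compared in FPKM, which divides by gene length. In WT cells the order was *Traf7* (25 FPKM), *Tradd* (16.6), *Traf3* (13.6), *Traf2* (11), *Traf6* (9.27), *Ripk1* (9.12), *Traf4* (4.67), *Fadd* (4.14), *Traf5* (2.44) and *Traf1* (1.21 FPKM). The libraries of neighbours in this order overlapped for *Tradd* and *Traf3*, for *Traf6* and *Ripk1*, and for *Traf4* and *Fadd*. In VC cells *Traf4*, at 9.65 FPKM, stood between *Traf2* (10.8) and *Traf6* (7.55 FPKM), and the others kept their order. There the neighbours *Traf7* and *Tradd*, *Traf2* and *Traf4*, *Traf6* and *Ripk1*, and *Fadd* and *Traf5* overlapped.

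The summed FPKM of the 7 TRAF genes was 67.1 ± 1.24 in WT and 64.7 ± 1.58 in VC cells (SD, n = 3), and the groups overlapped. The share of *Traf4* was 7.92%, 3.88% and 9.19% in the WT libraries and 15.4%, 13.2% and 16.1% in the VC libraries. *Traf1* made up 2.20%, 1.33% and 1.86% against 0.671%, 0.729% and 0.720%, a mean of 1.80% against 0.707%. These shares follow from the levels given above and are a description, without a test. *Traf7* was the largest share in both groups, at a mean of 37.2% against 32.4%. The ratio of *Traf4* to *Traf1* in FPKM was 2.90 to 4.94 in WT and 18.1 to 23.0 in VC libraries, and that of *Traf1* to *Traf2*, whose proteins work together, had a mean of 0.110 against 0.0423.

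The summed FPKM of *Tradd*, *Fadd* and *Ripk1* also overlapped between the groups, at 29.9 ± 1.75 and 30.1 ± 1.62 (SD, n = 3). *Tradd* took 56.4%, 54.8% and 55.5% of it in WT and 64.2%, 65.4% and 66.5% in VC libraries. *Ripk1* took a mean of 30.6% against 23.6%. The ratio of *Tradd* to *Ripk1* was 1.65 to 1.94 in WT and 2.53 to 2.99 in VC libraries.

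**Figure D3:**
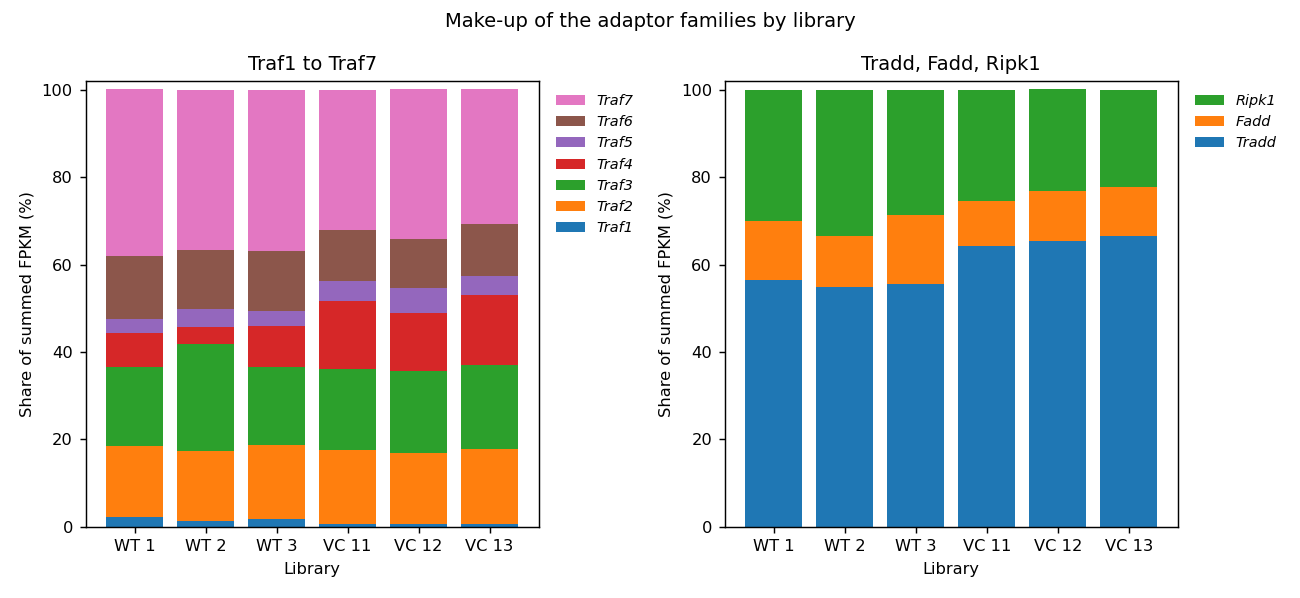
Share of the summed FPKM (vertical axis, %) of each TRAF gene (left) and of Tradd, Fadd and Ripk1 (right), as 1 stacked bar per library (horizontal axis). Traf4 is 3.88% to 9.19% of the TRAF sum in WT and 13.2% to 16.1% in VC libraries, and Tradd is 54.8% to 56.4% against 64.2% to 66.5% of the other sum.

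**Figure D4:**
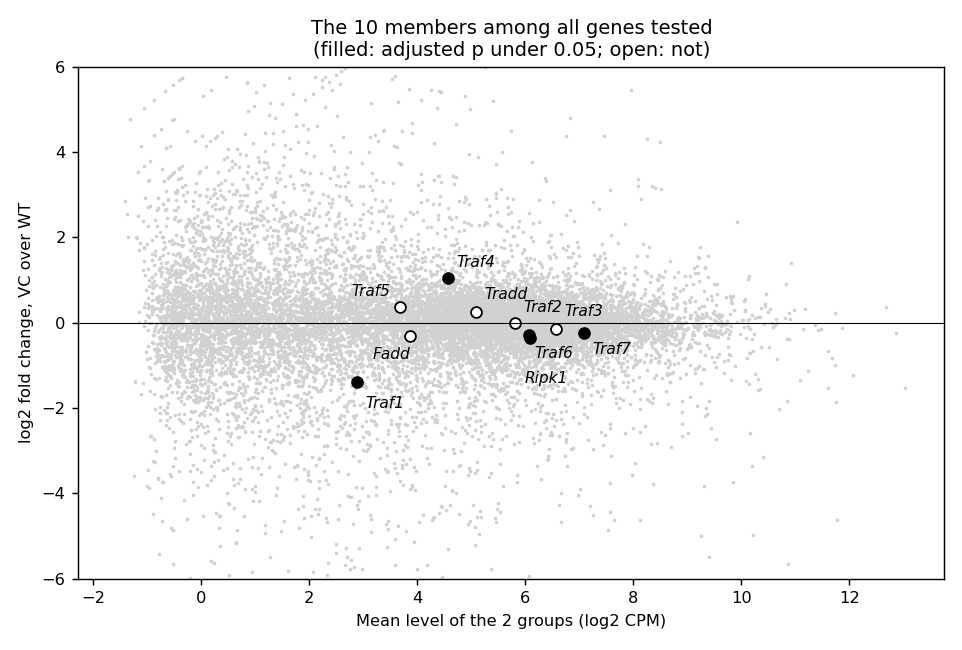
Log2 fold change of VC over WT (vertical axis, cut at 6 in both directions, which leaves out 141 genes) against the mean level in log2 CPM (horizontal axis) for all 14169 genes tested (grey) and the 10 adaptor genes (black filled when called, open when not). The points of the adaptor genes lie close to the 0 line except Traf1 below it and Traf4 above it.

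Over all genes tested, the median size of a log2 fold change was 0.44 in either direction. Of the adaptor genes, *Traf1* and *Traf4* exceeded this size, and *Traf5* and *Ripk1* came next, at 0.38 and 0.35. The genes whose profile over the 6 libraries was most like that of *Traf1*, by the root mean square difference in centred log2 CPM among 11433 genes, were *Rcbtb2* (0.088), *Inpp5f* (0.0949) and *Thumpd2* (0.0967). Those most like *Traf2*, the adaptor gene with the largest p, were *Sike1* (0.0265), *Esco1* (0.0319) and *Tmub2* (0.0334).

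The genes that work around the adaptors were read from 6 lists with 95 genes, of which 85 were tested. Of these 21 rose, 27 fell and 37 were not called, so that 56.5% were called against 44.2% of all genes tested. The median log2 fold change was -0.02. By list, the share called was 86.7% for the TNF receptors, 66.7% for the death effectors and 53.8% for the deubiquitinases and inhibitors. It was 50% for the ubiquitin ligases, 41.2% for the downstream kinases and 38.5% for the adaptors upstream of TRAF6 and TRAF3.

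Upstream, the receptors of the TNF superfamily were called in both directions. Of 22 receptor genes 15 were tested, and 7 rose, 6 fell and 2 were not called (median 0.16). *Tnfrsf9*, which encodes the receptor 4-1BB that signals through TRAF1 and TRAF2, had 350, 411 and 258 counts in WT and 1, 1 and 0 in VC libraries. The WT to VC ratio of its summed counts, corrected for library size, was 556 (95% interval 154 to 4600, for counting error only). *Tnfrsf14*, the receptor HVEM, rose from 27.5 ± 2.46 to 80.6 ± 4.29 CPM (log2 fold change 1.55, edgeR adjusted p = 4.87e-05). *Tnfrsf1a*, the receptor that uses TRADD and RIPK1, also rose, from 42, 29 and 57 to 326, 192 and 92 counts, and was chosen for mention after its values were seen. Among the VC libraries it was highest in 11 and lowest in 13, as was the granulocyte marker *S100a8*, with 13434, 8291 and 3415 counts there and 581, 484 and 1487 in WT libraries, and the part of granulocytes in this receptor's values was not tested.

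The next list held adaptors and kinases upstream of TRAF6 and TRAF3, among them those of the interleukin-1 and Toll-like receptors. It had 3 of 13 tested genes higher, 2 lower and 8 not called (median 0.04). *Sqstm1*, whose protein p62 binds TRAF6, fell from 1067 ± 513 to 242.9 ± 28.3 CPM (log2 fold change -2.14, edgeR adjusted p = 0.00160). *Mavs*, the mitochondrial adaptor upstream of TRAF3, rose from 203.9 ± 24.2 to 438.6 ± 4.12 CPM (log2 fold change 1.11, edgeR adjusted p = 0.000191).

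Of the ubiquitin ligases and their partners, 2 of 12 rose, 4 fell and 6 were not called (median -0.06). *Trim25*, a ligase of antiviral signaling, rose (log2 fold change 1.56), *Birc3*, the cIAP2 ligase that binds TRAF1 and TRAF2, fell (-0.76), and *Rbck1*, a subunit of the linear ubiquitin ligase, was at 0.11 and not called (edgeR adjusted p = 0.280). Of the deubiquitinases and inhibitors, 3 of 13 rose, 4 fell and 6 were not called (median -0.01). *Tnfaip3*, the gene of the inhibitor A20, fell from 2647 ± 953 to 648.7 ± 260.1 CPM (log2 fold change -2.03, edgeR adjusted p = 0.00301). *Tnip2* and *N4bp1*, which encode ubiquitin-binding inhibitors of NF-κB signaling, also fell (-0.98 and -0.54).

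Downstream, the kinases had 1 of 17 genes higher, 6 lower and 10 not called, with a median of -0.41. *Mapk8*, the gene of the kinase JNK1, fell from 30.0 ± 2.33 to 11.6 ± 0.954 CPM (log2 fold change -1.37, edgeR adjusted p = 0.000194). The partners of the kinase TAK1 went in both directions, with *Tab1* higher (0.80) and *Tab2* lower (-0.54). Of the death effectors, 5 of 15 rose, 5 fell and 5 were not called (median 0.03). *Ripk3*, the kinase of necroptosis, fell from 105.7 ± 10.2 to 50.8 ± 0.341 CPM (log2 fold change -1.06, edgeR adjusted p = 0.000150), and *Ripk2*, the kinase of the NOD receptors, fell further (-2.43).

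**Figure D5:**
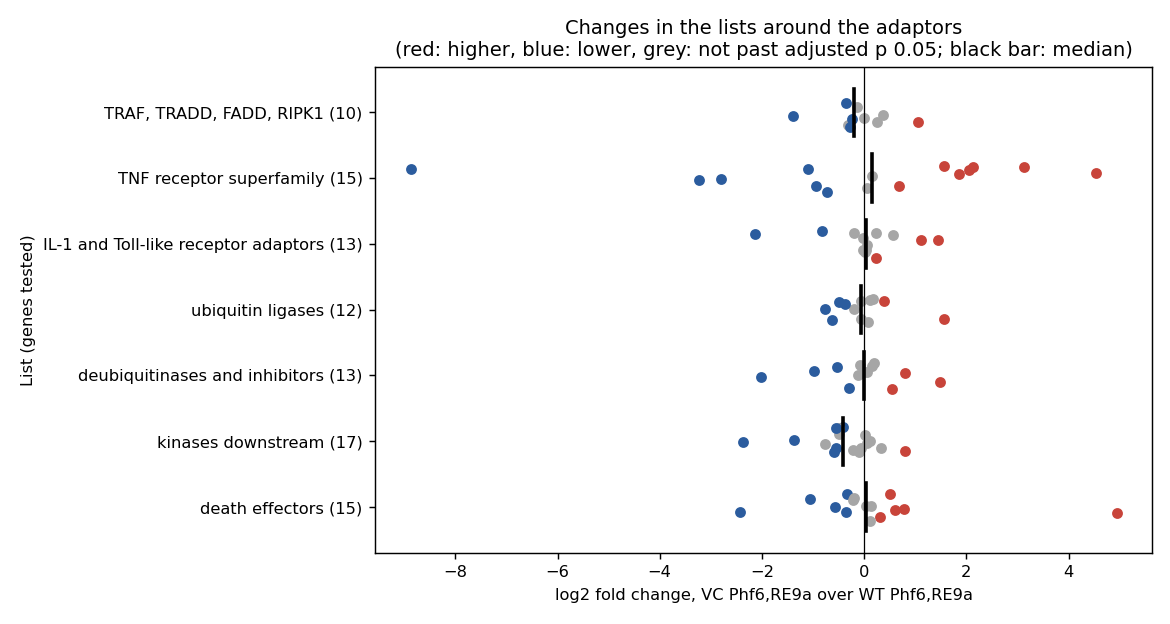
Log2 fold change of VC over WT (horizontal axis) of each tested gene in the adaptor set and the 6 lists around it (vertical axis, with the number of genes tested), with points red for higher, blue for lower and grey for not called, and a black bar at the median. The medians lie between -0.41 for the kinases and 0.16 for the TNF receptors.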

How the data were processed

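RNA of sorted GFP+ leukemia cells was sequenced in 3 *WT Phf6,RE9a* and 3 *VC Phf6,RE9a* libraries. The deposited table holds raw read counts for each Ensembl gene, as whole numbers. Its FPKM values, also deposited by the authors, equal the counts divided by gene length and by a library size scaled with DESeq2's size factors, as checked against the table. The submitters' processing notes name Bowtie 0.12.0 and mm8, yet 98.3% of the 54409 identifiers found in GENCODE M21 have the GRCm38 coordinates given there, which are used here. The counting tool is not given in the sources used here. Columns with the authors' own fold changes and p-values were not used.

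In R 4.3.3, counts were filtered (filterByExpr), scaled by TMM and tested with edgeR 4.0.16 (quasi-likelihood test, Benjamini-Hochberg adjustment over 14169 genes, threshold 0.05), with a prior count of 2 for log2 CPM. The SE was taken as the size of the log2 fold change over √F, and intervals are at 95%. Limits and intervals from counts hold for counting error alone, because the reads carry no molecular identifiers and may repeat a molecule.

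The members, the lists and the tests were chosen with earlier results of these data known. Besides the 10 adaptor genes and *Phf6*, the text names in each of the 6 lists the 2 genes with the smallest p and the gene with the highest FPKM, and the 3 genes with the profile nearest to the adaptor genes of smallest and largest p. A gene that this rule takes from the death effectors is not reported here. Alternatives were DESeq2 1.42.0, size factors (RLE), all genes with a count, a minimum of 10 counts in each library, limma 3.58.1 on log2(FPKM + 1) and log2(FPKM + 0.1), other thresholds, and each library left out in turn. Figures were drawn with matplotlib 3.10.9.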

Additional observations from a re-analysis of the deposited data

How the results depend on the processing

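The same 5 adaptor genes were called with DESeq2, RLE size factors, at least 10 counts in every library and limma on log2(FPKM + 1). In this order, 35.2% (of 18467 genes tested with DESeq2), 44.2%, 43.7% and 42.2% of all genes tested were called. Without a count filter, and with limma on log2(FPKM + 0.1), *Traf1*, *Traf4* and *Ripk1* were called, so that 2 in place of 4 fell. Of all genes tested, 24.7% were called without a filter and 41.3% with limma on log2(FPKM + 0.1), against 44.2% in the main fit. At an adjusted p of 0.01 there were 0 higher and 1 lower, *Traf1*, against 1690 higher and 2110 lower over the whole table and 13 higher and 20 lower among the genes of the 6 lists. With a change of at least 2-fold, 1 adaptor gene was higher, *Traf4*, and 1 was lower, *Traf1*. Against this stood 1410 higher and 1625 lower over the table and 11 higher and 10 lower in the lists. Leaving out each library in turn gave 0 to 1 higher and 1 to 5 lower, and the share of all genes called was 32.2% to 43.9%. *Traf1* was called in 6 of these 6 fits (log2 fold change -1.56 to -1.22), *Ripk1* in 5, *Traf4* in 4 (0.76 to 1.28), and *Traf6* and *Traf7* in 2 each. *Fadd* was called without *WT Phf6,RE9a* library 2 (adjusted p = 0.0491). Uncalled values near 0 changed sign. *Traf2* was at 0.0034 with at least 10 counts in every library and between -0.03 and 0.041 with a library left out, *Traf3* between -0.24 and 0.0244, and *Sike1* between -0.0551 and 0.0058. *Esco1* was at -0.0042 with DESeq2, -0.0048 with RLE, -9e-04 without a filter, -0.0062 and -0.0068 with limma, and between -0.031 and 0.076 with a library left out. The cause of these differences was not tested. No paired analysis was made, because the labels name no pairs of libraries between the groups (replicates 1, 2 and 3 against 11, 12 and 13).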

Other observations

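The genes next to the adaptor genes on the chromosome were not part of any list, and those named were chosen after their values were seen. Calls among them stand against 44.2% called of all genes tested, and no link to the adaptor genes was tested. Beside *Traf4*, both neighbours tested rose, *Nek8* at a distance of 517 bases (log2 fold change 0.57, adjusted p = 0.00903 from edgeR) and *Fam222b* at 1799 bases (0.44, adjusted p = 0.0248). Beside *Ripk1*, *Bphl* at 450 bases fell (-0.99, adjusted p = 0.0127), while *Nqo2* at 13920 bases was at 0.11 and not called. Neither neighbour of *Traf1* was called, with *Phf19* at -0.17 and *AI182371* at -0.90 (adjusted p = 0.570 and 0.0690 from edgeR). Among genes that overlap an adaptor gene, *Serpinb6a* (-0.91, adjusted p = 0.0213 from edgeR) and *Gm17083* (-2.01, adjusted p = 0.00777) fell, as did *Ripk1*. At *Traf7*, which fell, *Rab26* fell (-2.47, adjusted p = 0.0142 from edgeR) and *Caskin1* rose (1.31, adjusted p = 0.0274). Not called were *Gstp-ps* at *Traf5* (-0.32, adjusted p = 0.331 from edgeR) and *4930595D18Rik* at *Traf3* (0.11, adjusted p = 0.836). Some other neighbours did not move with their adaptor gene. Beside *Tradd*, which was not called, *B3gnt9* at 3133 bases fell (-2.28, adjusted p = 0.00333 from edgeR). Beside *Traf5*, also not called, *Slc30a1* at 83958 bases rose (0.55, adjusted p = 0.0165 from edgeR), while *Rcor3* at 5987 bases was at -0.09 and not called. Beside *Traf6*, which fell, *Rag1* at 28928 bases had a mean of 6.25 CPM in *VC Phf6,RE9a* cells and 0.0404 CPM, under the level of 3 counts, in *WT Phf6,RE9a* cells.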
